A study of Mus musculus with 10 samples.

Results

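The NF-kB system was described through 33 genes: transcription factor subunits, the inhibitors that hold them in the cytoplasm, the enzymes and adaptors that control those inhibitors, and genes that NF-kB is known to switch on. Members were chosen by gene symbol, and the brightest probe set carrying only that symbol stood for the gene. This gave values for 31 of the 33 members, out of 19937 genes on the array; Chuk and Traf3 were not analysed here. Cells were J558, a mouse myeloma line with the character of an antibody-secreting plasma cell. They had been transduced with a murine stem cell virus vector that carries puromycin resistance and, behind an internal ribosome entry site, green fluorescent protein (GFP). The vector held no insert (3 arrays), wild-type Pax5 (3 arrays) or Pax5 G183S (4 arrays), the last with a serine in place of a glycine. Cells of every group, controls included, had 5 to 7 days of puromycin and were sorted by GFP and IgM, so all values describe selected, sorted cells. Pax5 comes from a viral promoter in these cells, and the labels do not say whether a culture grew from 1 clone. They call the replicates biological but do not say whether each came from its own transduction, so p-values measure the spread between these samples.

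NF-kB proteins are pairs of Rel-family subunits that wait in the cytoplasm bound to IkB inhibitors. In the canonical route, signals from antigen, Toll-like or tumour necrosis factor receptors activate the IkB kinases, IkB is destroyed and the Rela or Rel pairs enter the nucleus. In the non-canonical route, the kinase encoded by Map3k14 accumulates once a complex of TRAF and cIAP proteins stops degrading it, and the Nfkb2 precursor is cut to the form that pairs with Relb. Nuclear NF-kB switches on its own brakes, above all Nfkbia and Tnfaip3, so that the transcripts of the inhibitors are themselves known readouts of the pathway. Plasma cells and myelomas often depend on NF-kB for survival.

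Several members carry, close to their start sites, letters that match a kappa-B element, the kind of DNA site NF-kB binds; those stretches are shown so that the values can be read beside them. The pattern sought was 3 G, any 2 bases, 3 T and 2 C, on both strands, in RefSeq windows from 250 bases before to 50 bases after each start in GRCm38.p6. A match is a description of letters and not of binding. Of 28 members with such a window, 9 (32.1%) held a match (Cyld, Il6, Ltb, Nfkb2, Nfkbia, Rel, Tnfaip3, Traf2 and Traf3), against 1.89% of 27025 genes and 1.63% of 32851 windows. Sequences run 5′ to 3′ along the gene's strand, with the match in capitals; the first shows the 250 bases before the start of Nfkbia, the others a match with its flanks.
Nfkbia (chr12:55492648-55492897, - strand): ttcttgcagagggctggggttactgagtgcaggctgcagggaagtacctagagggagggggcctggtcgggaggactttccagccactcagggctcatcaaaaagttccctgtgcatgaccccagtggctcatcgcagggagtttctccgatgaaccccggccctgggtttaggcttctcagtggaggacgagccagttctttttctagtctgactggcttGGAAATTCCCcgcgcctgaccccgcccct
Rel (chr11:23771031-23771080, - strand): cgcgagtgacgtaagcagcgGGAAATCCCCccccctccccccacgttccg
Nfkb2 (chr19:46304706-46304736, + strand): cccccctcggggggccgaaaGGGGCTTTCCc
Tnfaip3 (chr10:19015411-19015442, - strand): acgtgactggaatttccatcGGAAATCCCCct
Ltb (chr17:35194400-35194449, + strand): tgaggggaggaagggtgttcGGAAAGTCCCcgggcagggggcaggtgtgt
Il6 (chr5:30013050-30013099, + strand): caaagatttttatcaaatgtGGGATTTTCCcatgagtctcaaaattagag
Cyld (chr8:88696853-88696902, + strand): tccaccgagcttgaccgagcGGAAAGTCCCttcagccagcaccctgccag
The Nfkbia and Tnfaip3 matches began 29 and 12 bases before the start, and those of Rel and Ltb 91 and 87 bases before it. In Traf2, the match lay after the start.

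The 10 arrays had medians of 6.81 to 6.94 log2 units. Pax5 read 7.10, 6.84 and 7.01 log2 units with empty vector, 10.67, 10.09 and 10.05 with wild type and 10.22, 10.36, 9.38 and 9.96 with G183S, so every array of a Pax5 vector lay above every control array. Of 9 plasma-cell markers 8 were measured and all were bright, with list means of 11.75 to 11.93 log2 units in the controls. T-cell, myeloid, stromal and dendritic lists averaged 5.97 to 7.44 log2 units in every group, and most of their genes had means under 6.89, the median of all values. Bright exceptions included Cd28 and Cd68, with means of 12.32 and 9.91 log2 units with empty vector. Within the T-cell list Cd3g was dim yet lower with wild type (log2 difference -1.09 ± 0.16 SE, adjusted p = 0.0172) and with G183S (-1.15 ± 0.15 SE, adjusted p = 0.0171) than with empty vector; the first call was lost without empty-vector replicate 2 or 3 or wild-type replicate 1, the second without empty-vector replicate 2 or 3 or G183S replicate 2 or 4 (adjusted p = 0.0560 to 0.0861). Cd4 differed from empty vector by -1.39 ± 0.44 SE with wild type (adjusted p = 0.150) and -1.41 ± 0.41 SE with G183S (adjusted p = 0.181). Neither Cd4 difference passed. Detection calls were not used here, so no level can be called absent. In RNA from a whole culture, fewer cells expressing a gene and less RNA per cell cannot be told apart. The first G183S replicate stood apart from the other 3 across the NF-kB members, as given below, and the calls of members that change when it is left out are given both ways.

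Rel was higher with wild-type Pax5; it encodes the subunit c-Rel of B-cell activation, and no other measured member passed the test. Here a gene was called when limma's two-sided p, adjusted over 19937 genes, was under 0.05. That is 1 of 31 members called, against 1.88% of all genes (0.883% higher and 0.993% lower). With single arrays left out, the share of all genes itself ran from 0.0301% without empty-vector replicate 3 to 5.18% without G183S replicate 1. With array weights it was 12.9%. The median member differed by 0.09 log2 units from empty vector and the median gene by 0.01, with 16 of 31 members above 0 (53.9% of all genes). At an unadjusted p under 0.05 there were 7 members, 4 higher and 3 lower, against 15.9% of all genes (7.38% higher, 8.55% lower). In 6 members (3 higher, 3 lower) the groups did not overlap, which was the case for 24% of all genes (11.5% higher, 12.5% lower). Single arrays moved this count: it was 7 higher and 4 lower without empty-vector replicate 1 (17% and 17% of genes), 9 and 3 without wild-type replicate 1 (19% and 17.8%), and 6 and 9 without wild-type replicate 3 (19% and 19.5%).

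Against empty vector, G183S cultures gave 0 of 31 members past the threshold of limma, where 0.311% of all genes were called (0.1% higher, 0.211% lower). Their differences were mostly above 0. The median member was 0.19 log2 units higher with G183S than with empty vector, beside -0.00331 for the median gene, and 24 of 31 members were above 0 against 48.8% of genes. Unadjusted, 8 members had p under 0.05 (7 higher and 1 lower, against 11.3% of genes, 5.12% higher and 6.18% lower), and in 7 members the groups did not overlap (6 higher, 1 lower, against 11.6% of genes, 5.02% higher and 6.56% lower). Of the 6 higher, Traf1, Tnf and Ccl4 had means under 6.89 log2 units. The higher count was 3 of 24 with dim genes left out and 4 of 31 with arrays centred on their medians. The shares of all genes under those settings are not given here. Without G183S replicate 1 the groups did not overlap for 14 members higher and 1 lower, against 12% and 13.2% of genes. Both comparisons use the same 3 control arrays.

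The G183S and wild-type arrays were then set against each other, which asks whether the mutant and normal proteins left these genes at different levels. limma called 0 of 31 members and 0% of all genes. Unadjusted, 3 members (Traf1, Nfkb2 and Il6, all higher with G183S) had p under 0.05, against 9.48% of genes (5.08% higher, 4.41% lower). In 0 members were the groups without overlap, against 6.5% of genes (2.33% higher, 4.17% lower). Without wild-type replicate 3 there were 6 higher and 1 lower (6.83% and 9.85% of genes), and without G183S replicate 1 there were 9 higher and 1 lower (13.6% and 10.9%). The median member lay 0.16 log2 units higher with G183S, the median gene -0.02, and 22 of 31 members were above 0 (43.5% of genes).

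**Figure D1:**
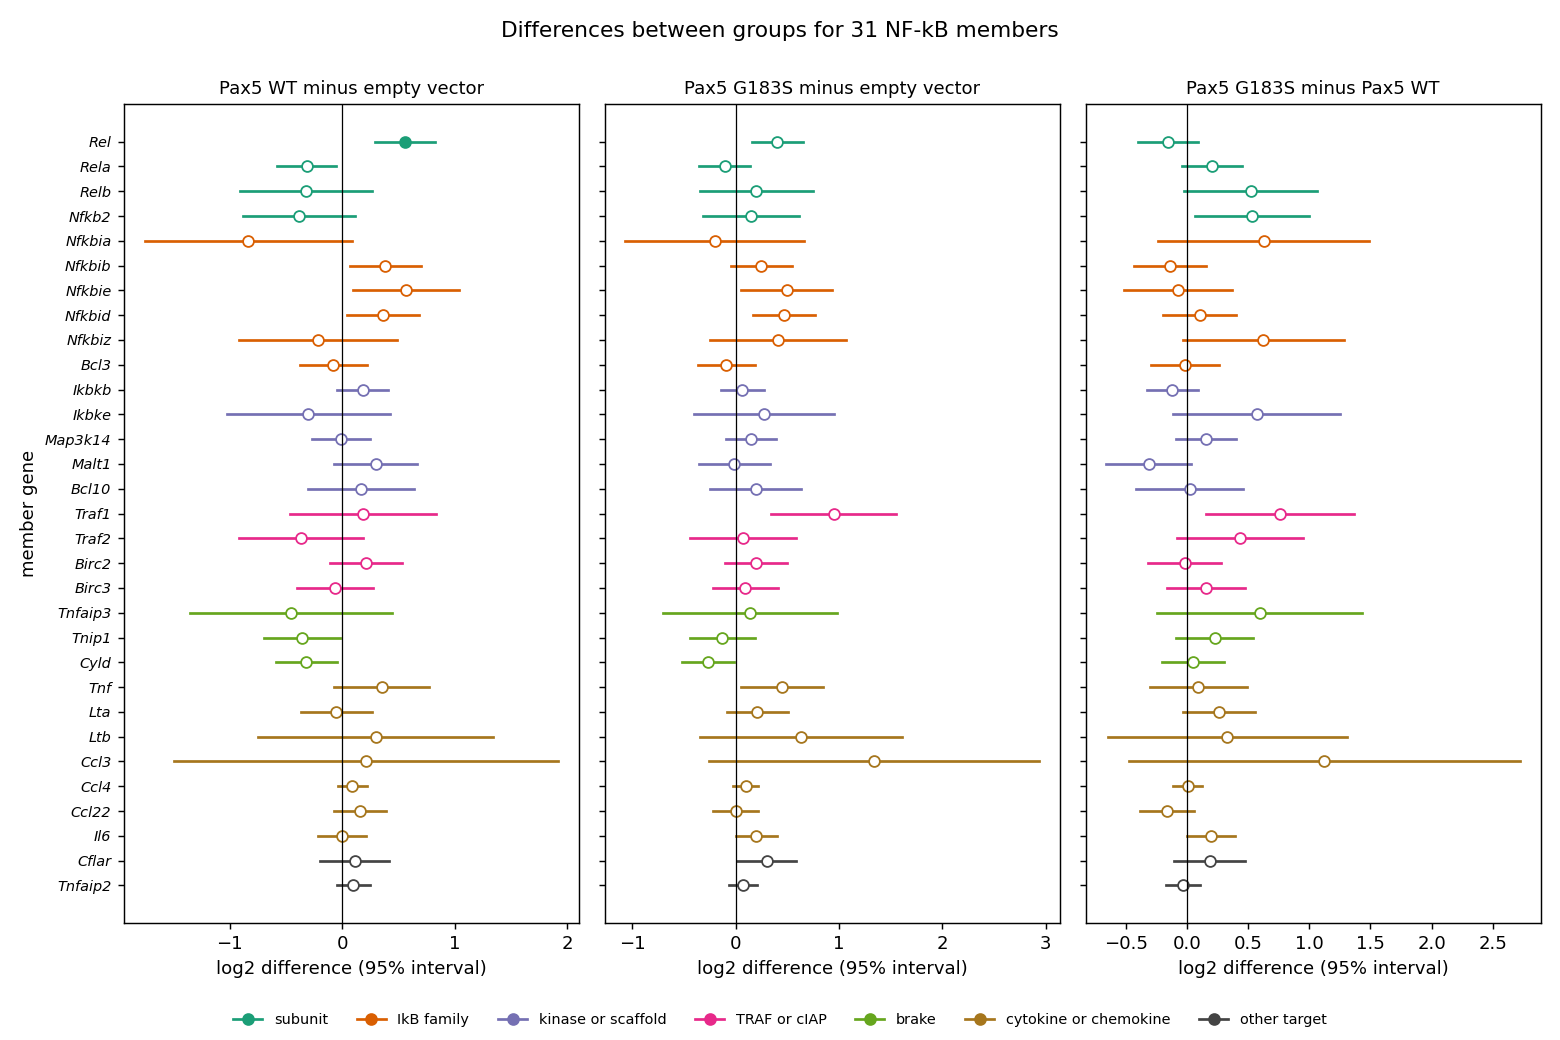
Log2 differences (points) with 95% intervals (lines) of 31 members, coloured by role, in each comparison; filled points passed limma's adjusted threshold. Rel in wild type against empty vector is the filled point, and Ccl3, Ltb and Nfkbia have the widest intervals in each comparison.

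Among the subunits, Rel stood highest in wild-type cultures. It read 11.22, 11.43 and 11.26 log2 units with empty vector, 11.60, 11.93 and 12.06 with wild type and 11.60, 11.77, 11.64 and 11.82 with G183S, and all 7 arrays with a Pax5 vector exceeded all 3 controls. The rise with wild type was 0.56 ± 0.12 SE, adjusted p = 0.0484, and the G183S difference of 0.40 ± 0.11 SE did not pass (adjusted p = 0.156). The G183S minus wild-type difference had an interval of -0.40 to 0.09 and included 0. The wild-type call was narrow. It was lost with adjustment over all 34760 probe sets (adjusted p = 0.0852), with arrays centred on their medians (0.0679) or quantile normalized (0.0653), with only the 2 groups fitted (0.0702), and without empty-vector replicate 1, 2 or 3, wild-type replicate 2 or 3, or G183S replicate 2, 3 or 4 (adjusted p = 0.0577 to 0.172).

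Rela, the main activating subunit of the canonical route, was lower in all 3 wild-type arrays than in any control. Its values were 11.22, 11.29 and 11.16 log2 units with empty vector, 10.75, 10.90 and 11.08 with wild type and 10.84, 11.20, 11.17 and 11.26 with G183S. The difference with wild type was -0.31 ± 0.12 SE, adjusted p = 0.228, and with G183S -0.11 ± 0.11 SE, adjusted p = 0.830. In the wild-type arrays Rel lay above the controls and Rela below them; Rel passed and Rela did not.

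Relb and Nfkb2 encode the partners of the non-canonical route. Relb had 8.58, 8.59 and 8.48 log2 units with empty vector, 7.87, 8.16 and 8.65 with wild type and 8.05, 9.0, 8.89 and 9.05 with G183S. For Nfkb2 the levels were 9.73, 9.63 and 9.43 log2 units with empty vector, 8.91, 9.13 and 9.60 with wild type and 9.20, 9.89, 9.91 and 9.98 with G183S. In both, G183S replicates 2, 3 and 4 lay above every control and every wild-type array, whereas G183S replicate 1 lay among the wild-type arrays. Against empty vector neither gene passed with wild type (Relb -0.32 ± 0.26 SE, adjusted p = 0.610; Nfkb2 -0.38 ± 0.22 SE, adjusted p = 0.451) or G183S (Relb 0.20 ± 0.25 SE, adjusted p = 0.872; Nfkb2 0.15 ± 0.21 SE, adjusted p = 0.893). Without G183S replicate 1 the G183S differences were 0.43, adjusted p = 0.220 for Relb and 0.33, adjusted p = 0.348 for Nfkb2. Between G183S and wild type, Relb differed by 0.52 ± 0.25 SE, adjusted p = 0.535, and Nfkb2 by 0.53 ± 0.21 SE, adjusted p = 0.508. The Relb value was 0.34 without wild-type replicate 1.

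**Figure D2:**
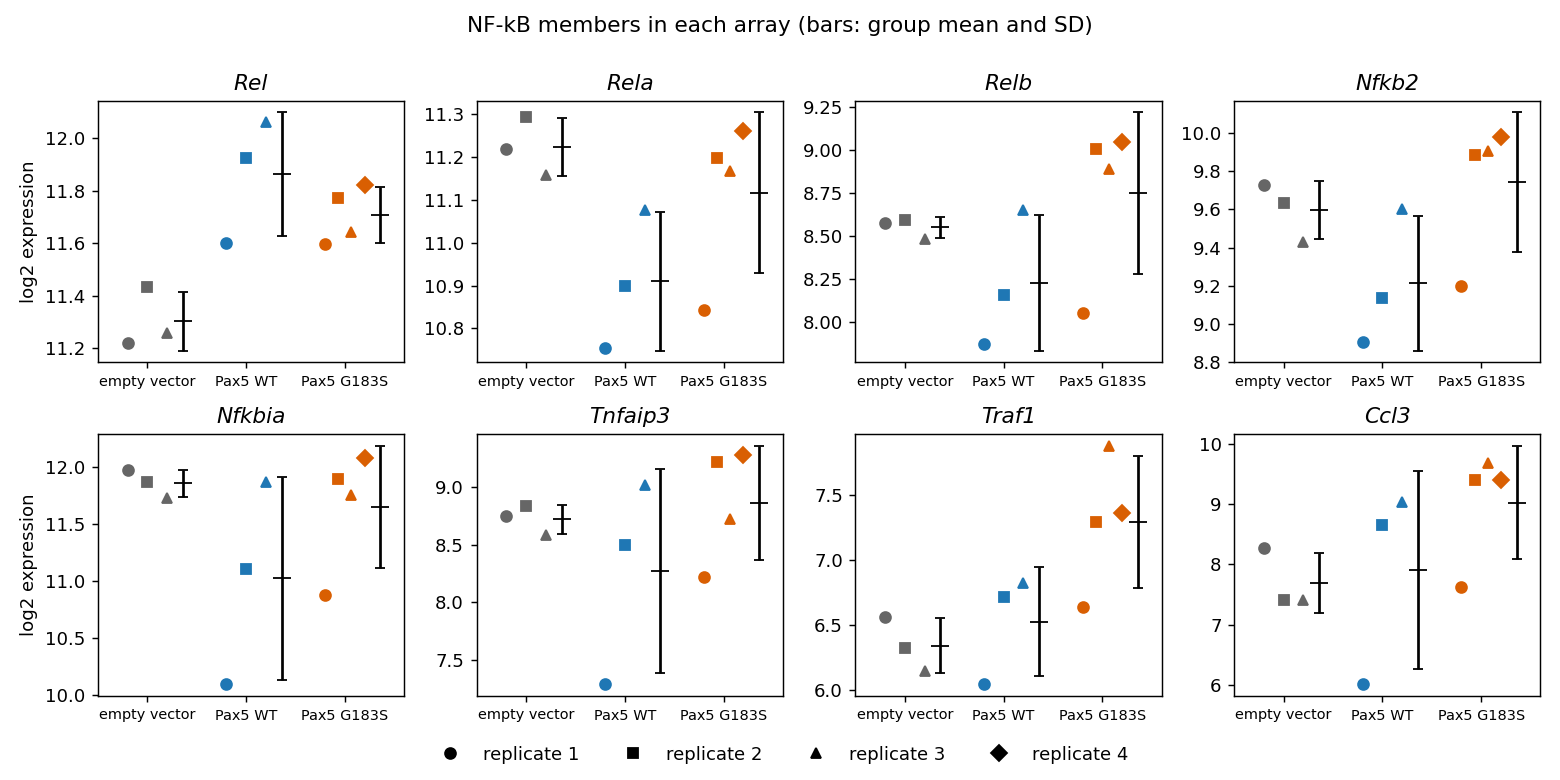
Log2 expression of 8 members in each array, by group, with marker shape for the replicate number and a bar for the group mean and SD. Replicate 1 is the lowest array of both Pax5 groups in these 8 genes, and the 7 Pax5-vector arrays of Rel lie above its 3 controls.

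No member of the IkB family passed in the reported fit. Nfkbia encodes IkB-alpha, the inhibitor that NF-kB itself induces. It read 11.97, 11.87 and 11.73 log2 units with empty vector, 10.09, 11.11 and 11.88 with wild type and 10.88, 11.90, 11.75 and 12.09 with G183S. Wild-type replicate 1 was the lowest array, while wild-type replicate 3 lay among the controls. The wild-type difference was -0.83 ± 0.41 SE, adjusted p = 0.365 (interval -1.75 to 0.09), which includes 0. It was -0.37 without wild-type replicate 1 and -1.26 without wild-type replicate 3. With G183S the Nfkbia difference was -0.21 ± 0.39 SE, adjusted p = 0.927, and 0.05, adjusted p = 0.968 without G183S replicate 1.

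Nfkbib and Nfkbie encode the other classical IkB proteins. Nfkbib had 10.41, 10.45 and 10.42 log2 units with empty vector, 10.95, 10.46 and 11.02 with wild type and 10.82, 10.66, 10.48 and 10.75 with G183S, and its wild-type difference was 0.38 ± 0.14 SE, adjusted p = 0.219. Without wild-type replicate 2, which lay near the controls, Nfkbib passed (0.56, adjusted p = 0.0466), at a background of 0.933% of genes. With array weights, which rated that replicate highest, Nfkbib differed by 0.15, adjusted p = 0.443. Nfkbie had 7.12, 7.34 and 7.07 log2 units with empty vector, 7.47, 7.72 and 8.03 with wild type and 7.74, 8.03, 7.14 and 7.77 with G183S. It differed by 0.57 ± 0.21 SE, adjusted p = 0.224 with wild type and by 0.49 ± 0.20 SE, adjusted p = 0.371 with G183S, and G183S replicate 3 was the only array of a Pax5 vector inside its control range.

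Nfkbid, Nfkbiz and Bcl3 encode atypical IkB proteins, which act in the nucleus and can activate genes as well as repress them. Nfkbid read 8.38, 8.23 and 8.04 log2 units with empty vector, 8.78, 8.29 and 8.66 with wild type and 8.77, 8.51, 8.59 and 8.86 with G183S, with every G183S array above the controls. Its G183S difference of 0.47 ± 0.13 SE, adjusted p = 0.173 had the third smallest p among members in that comparison. With wild type it was 0.36 ± 0.14 SE, adjusted p = 0.256, and 0.21 with array weights. Nfkbiz read 9.19, 8.67 and 8.36 log2 units with empty vector, 8.10, 8.46 and 9.03 with wild type and 8.46, 9.31, 9.41 and 9.43 with G183S and separated G183S replicate 1 from the other 3, with a G183S minus wild-type difference of 0.63 ± 0.29 SE, adjusted p = 0.535 (0.41 without wild-type replicate 1). Bcl3 stayed within 7.57 to 8.01 log2 units over all arrays.

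Cyld, Tnip1 and Tnfaip3 restrain the pathway through ubiquitin chains, and none passed the test. Cyld, a deubiquitinase, had 10.32, 10.42 and 10.42 log2 units with empty vector, 9.78, 10.22 and 10.21 with wild type and 9.98, 10.18, 10.06 and 10.27 with G183S, and each array with a Pax5 vector lay below each control. Its differences were -0.32 ± 0.12 SE, adjusted p = 0.230 with wild type and -0.27 ± 0.11 SE, adjusted p = 0.416 with G183S; the first was -0.18 without wild-type replicate 1. Tnip1, a binding partner of the Tnfaip3 product, read 8.82, 8.55 and 8.39 log2 units with empty vector, 8.13, 8.25 and 8.31 with wild type and 8.24, 8.41, 8.82 and 8.36 with G183S, a wild-type difference of -0.35 ± 0.15 SE, adjusted p = 0.286. Tnfaip3 encodes a ubiquitin-editing enzyme that shuts signalling off and is itself induced by NF-kB. It read 8.75, 8.84 and 8.59 log2 units with empty vector, 7.29, 8.50 and 9.02 with wild type and 8.22, 9.22, 8.73 and 9.29 with G183S. Wild-type replicate 1 was far below the controls and wild-type replicate 3 above them, and neither -0.45 (wild type, adjusted p = 0.647) nor 0.14 (G183S, adjusted p = 0.960) passed.

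Kinases and scaffolds carry the signal from receptors to IkB. Of 5 measured (Ikbkb, Ikbke, Map3k14, Malt1 and Bcl10), 0 passed limma and 0 had an unadjusted p under 0.05 in any comparison. Among all genes, 1.88%, 0.311% and 0% passed in wild type against empty vector, G183S against empty vector and G183S against wild type. Unadjusted, the shares were 15.9%, 11.3% and 9.48%, so 0 of 5 says little about this group. Ikbkb, the catalytic kinase of the canonical route, read 8.90, 8.84 and 8.82 log2 units with empty vector, 9.23, 8.99 and 8.88 with wild type and 9.08, 8.93, 8.80 and 8.86 with G183S. Map3k14, the kinase that starts the non-canonical route, read 7.13, 7.31 and 7.21 log2 units with empty vector, 7.04, 7.15 and 7.43 with wild type and 7.26, 7.50, 7.22 and 7.48 with G183S, and its wild-type interval was -0.27 to 0.25. Malt1, a protease that links the antigen receptor to the IkB kinases, was the 1 gene lower with G183S than with wild type among the 8 members of smallest p in that comparison. It had 9.54, 9.46 and 9.51 log2 units with empty vector, 10.07, 9.85 and 9.49 with wild type and 9.84, 9.39, 9.26 and 9.47 with G183S, a G183S minus wild-type difference of -0.31 ± 0.15 SE, adjusted p = 0.543. That value was -0.18 without wild-type replicate 1 and -0.47 without wild-type replicate 3. The adaptor gene Bcl10 and the kinase gene Ikbke had G183S minus wild-type differences of 0.02 and 0.57 log2 units; Ikbke spanned 7.44 to 9.06 log2 units, with its top value in G183S replicate 3.

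TRAF and cIAP genes encode the adaptors and ubiquitin ligases at the receptors. Traf1, an adaptor and a known NF-kB target, had the second smallest p with G183S against empty vector. It was dim, as 42.8% of genes had a lower mean. It read 6.56, 6.32 and 6.14 log2 units with empty vector, 6.05, 6.71 and 6.82 with wild type and 6.64, 7.29, 7.87 and 7.35 with G183S, so that every G183S array was above every control. The G183S difference was 0.95 ± 0.27 SE, adjusted p = 0.171, and it passed without G183S replicate 1 (1.17, adjusted p = 0.0393), when 1.48% of genes were called. Against wild type, Traf1 differed by 0.76 ± 0.27 SE, adjusted p = 0.499. Traf2, which recruits the cIAP proteins, read 9.46, 9.78 and 9.46 log2 units with empty vector, 8.98, 9.07 and 9.55 with wild type and 8.98, 9.89, 9.73 and 9.95 with G183S, with wild-type replicates 1 and 2 and G183S replicate 1 below the controls. Its G183S minus wild-type difference was 0.44 ± 0.23 SE, adjusted p = 0.555. The cIAP genes Birc2 and Birc3 differed by 0.21 and -0.06 with wild type and by 0.20 and 0.09 with G183S, none past the threshold.

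Of the cytokines and chemokines, Ccl3 spread most of all members. Ccl3, a macrophage-attracting chemokine that myeloma cells are known to secrete, read 8.27, 7.40 and 7.41 log2 units with empty vector, 6.01, 8.66 and 9.04 with wild type and 7.62, 9.41, 9.68 and 9.40 with G183S. G183S replicates 2, 3 and 4 were above every other array, and wild-type replicate 1 was the lowest of all. Its differences were 0.21 ± 0.77 SE, adjusted p = 0.928 with wild type and 1.34 ± 0.72 SE, adjusted p = 0.550 with G183S; the second has an interval of -0.26 to 2.94. Without G183S replicate 1 it was 1.81, adjusted p = 0.201. Ltb, the membrane anchor of lymphotoxin, read 7.91, 7.40 and 7.26 log2 units with empty vector, 7.17, 7.10 and 9.19 with wild type and 7.85, 8.17, 8.25 and 8.35 with G183S, with wild-type replicate 3 above all other arrays. Tnf, the founding cytokine of its family, read 5.81, 6.25 and 6.36 log2 units with empty vector, 6.24, 6.30 and 6.94 with wild type and 6.60, 6.56, 6.70 and 6.49 with G183S, with each G183S array above the controls and a difference of 0.45 ± 0.18 SE, adjusted p = 0.369. Tnf differed by 0.28 without empty-vector replicate 1, its lowest array. It was dim too, as 36.7% of genes had a lower mean.

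Il6, a growth factor for plasma cells, was the dimmest member: 1.44% of genes had a lower mean. It read 3.80, 3.87 and 3.86 log2 units with empty vector, 3.83, 3.79 and 3.91 with wild type and 3.82, 4.18, 4.16 and 4.02 with G183S. G183S replicates 2, 3 and 4 lay above all other arrays, and the differences were 0.20 ± 0.09 SE, adjusted p = 0.435 against empty vector and 0.20 ± 0.09 SE, adjusted p = 0.519 against wild type. Background signal was not measured here, so whether Il6 is expressed cannot be told from these values. Lta read 6.09, 6.15 and 6.30 log2 units with empty vector, 5.79, 6.25 and 6.34 with wild type and 6.53, 6.46, 6.37 and 6.20 with G183S, with a G183S minus wild-type difference of 0.26 ± 0.13 SE, adjusted p = 0.544, which was 0.09 without wild-type replicate 1 and 0.14 with array weights. Ccl4 and Ccl22 were dim as well and stayed within 6.20 to 6.36 and 5.53 to 5.97 log2 units.

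The survival gene Cflar, whose product blocks caspase activation at death receptors, read 10.11, 10.0 and 9.76 log2 units with empty vector, 9.93, 10.03 and 10.24 with wild type and 9.99, 10.30, 10.50 and 10.23 with G183S. Its G183S difference was 0.30 ± 0.13 SE, adjusted p = 0.423. Cflar has 3 probe sets. The ones not used gave wild-type differences of -0.14 and -0.19 in place of 0.11, and all 3 gave G183S differences between 0.28 and 0.31. Tnfaip2, a gene first found as induced by tumour necrosis factor, differed by 0.10 and 0.07 log2 units with wild type and G183S.

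**Figure D3:**
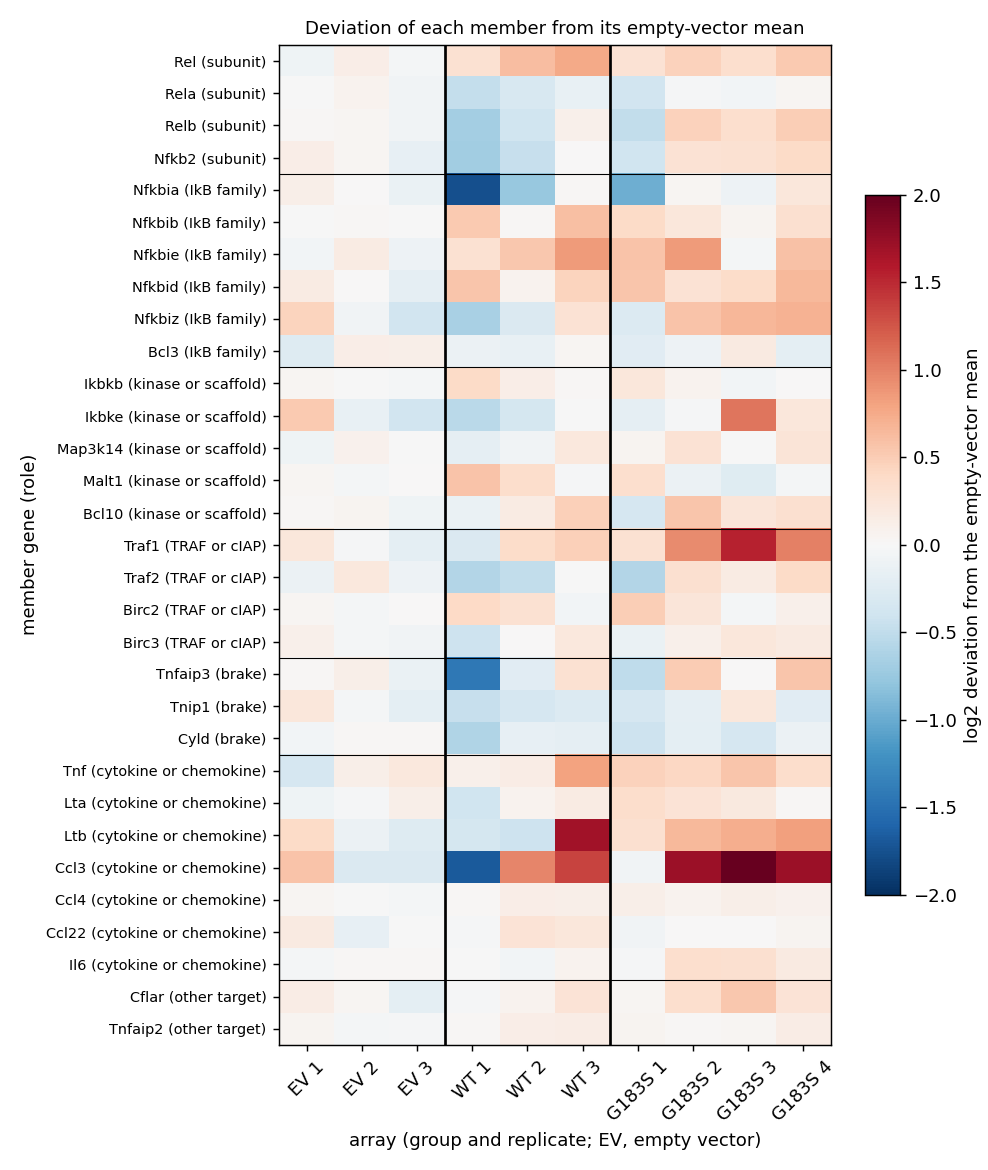
Deviation of each of 31 members from its empty-vector mean (colour, log2 units) in the 10 arrays, with members grouped by role and arrays by group. Blue cells gather in replicate 1 of both Pax5 groups for Relb, Nfkb2, Nfkbia, Tnfaip3 and Traf2, and red cells in G183S replicates 2, 3 and 4 for Traf1 and Ccl3.

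The members varied more between replicate cultures than most genes did. Their median SD within groups was 0.206 log2 units, against 0.124 for all genes, and 28 of 31 exceeded the gene median. Among genes with means above 6.89 log2 units it was 0.218 for 24 members and 0.159 for 11007 genes, and 20 of those members exceeded the gene median. Ccl3 (SD 1.11), Ltb (0.68), Nfkbia (0.60), Tnfaip3 (0.58), Ikbke (0.47) and Nfkbiz (0.45) led, while Ccl4 (0.04) and Tnfaip2 (0.06) were steadier than most.

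**Figure D4:**
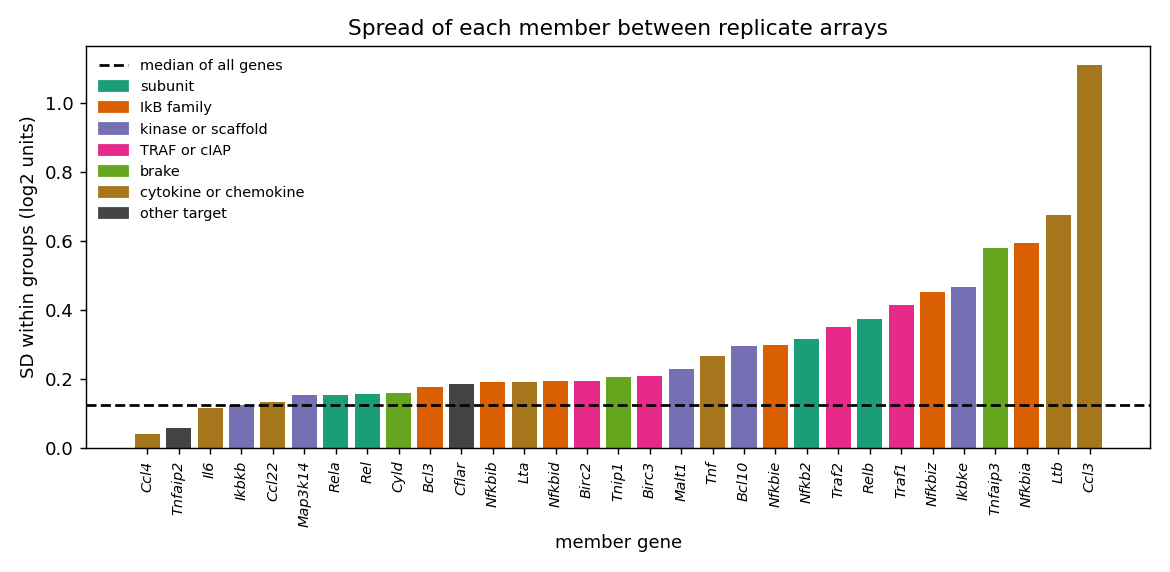
SD within groups (bars, log2 units) of each member, pooled over the 3 groups and coloured by role, with the median of all genes as a dashed line at 0.124. The bars of 28 of the 31 members pass the line, and Ccl3 is the highest at 1.11.

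That variation ran in the same direction for many members. Wild-type replicate 1 held the lowest wild-type value for 23 of 31 members (74.2%, against 41.6% of genes), and replicate 3 the highest for 24 (77.4%, against 39.4%). G183S replicate 1 was the lowest G183S array for 20 members (64.5%, against 32.6%). Replicate 1 was lowest in both Pax5 groups for 17 members (54.8%, against 18% of genes), among them Rel, Rela, Relb, Nfkb2, Nfkbia, Tnfaip3, Traf1, Traf2 and Ccl3. Among the controls, replicate 3 was lowest for 17 members (54.8%, against 28.9%).

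Counted against the controls, 22 members in G183S replicate 4, 21 in replicate 2 and 18 in replicate 3 lay above all 3 empty-vector arrays, and 2, 2 and 3 below. In G183S replicate 1 there were 12 above and 10 below. Wild-type replicates 1, 2 and 3 had 7, 12 and 19 members above and 17, 10 and 4 below. Over all genes, between 27% and 33.3% lay above and between 29.1% and 33.1% below in these 7 arrays. Wild-type replicate 1 thus held more low members than genes in general, and wild-type replicate 3 and G183S replicates 2, 3 and 4 more high ones.

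**Figure D5:**
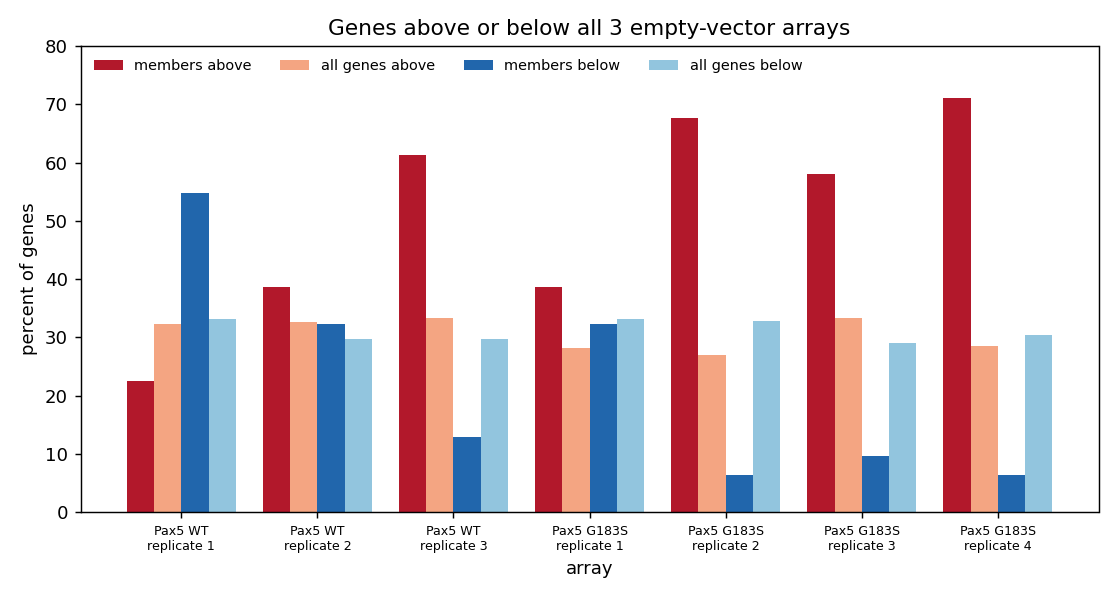
Percent of the 31 members and of all genes that lay above (reds) or below (blues) all 3 empty-vector arrays, for each of the 7 Pax5-vector arrays. Members above reach 71% in G183S replicate 4 and 22.6% in wild-type replicate 1, where 54.8% lie below.

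Without G183S replicate 1, 4 of 31 members were higher with G183S than with wild type, at a background of 5.58% of genes called (4.07% higher). They were Relb (0.75, adjusted p = 0.0332), Nfkb2 (0.71, adjusted p = 0.0354), Traf1 (0.98, adjusted p = 0.0380) and Traf2 (0.66, adjusted p = 0.0405). Relb and Nfkb2 encode the pair of the non-canonical route, and Traf2 belongs to the complex that restrains it. Rela (adjusted p = 0.0775), Nfkbiz (0.0699), Il6 (0.0521) and Malt1 (0.0847) did not pass. With arrays weighted by limma, which gave G183S replicate 1 a weight of 0.335 and wild-type replicates 1, 2 and 3 weights of 0.453, 3.48 and 0.565, so that the wild-type mean rests mostly on replicate 2, 8 members passed, 7 higher (Rela, Relb, Nfkb2, Nfkbiz, Traf1, Traf2 and Il6) and 1 lower (Malt1), at a background of 13.8% (8.3% higher, 5.5% lower). The same weights gave 3 members with wild type against empty vector (12.9% of genes) and 5 with G183S against empty vector (7.27%). The labels give no reason to set the culture of G183S replicate 1 aside, and with it 0 passed. That array drew attention because many of these members, Relb and Nfkb2 among them, are low in it. Calls made without it are therefore not independent of the values that marked it out.

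Genes of the pathway outside the 33 were taken from a list of 63 receptors, transducers, other regulators and targets, of which 57 were measured. In wild type against empty vector 1 of 57 passed and it was higher (1.88% of all genes); in each other comparison 0 passed (0.311% and 0% of genes). Unadjusted, 11 of 57 had p under 0.05 in wild type against empty vector (3 higher and 8 lower, against 15.9% of all genes). With G183S against empty vector there were also 11 (9 higher and 2 lower, against 11.3%). Between G183S and wild type there were 9 (6 higher and 3 lower, against 9.48%). The gene that passed was Traf5, an adaptor of tumour necrosis factor receptors. Traf5 read 7.61, 8.04 and 7.98 log2 units with empty vector, 8.81, 9.23 and 9.54 with wild type and 7.30, 7.99, 7.84 and 8.51 with G183S. It rose by 1.32 ± 0.28 SE, adjusted p = 0.0469 with wild type, while with G183S its difference was 0.03 ± 0.26 SE, adjusted p = 0.986. The call was lost with adjustment over all probe sets (adjusted p = 0.0820), with centred (0.0582) or quantile normalized arrays (0.0510), and without any 1 of the empty-vector or wild-type arrays or G183S replicate 2 or 3 (0.0586 to 0.155). The G183S minus wild-type difference was -1.28 ± 0.26 SE, adjusted p = 0.395, and did not pass, although the groups did not overlap. It passed without G183S replicate 1 (-1.08, adjusted p = 0.0268), when 5.58% of genes did.

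Tnfrsf13b and Tnfrsf17 encode receptors of plasma-cell survival factors. Tnfrsf13b, the receptor TACI, read 12.02, 12.05 and 12.07 log2 units with empty vector, 11.11, 11.69 and 11.88 with wild type and 11.40, 11.44, 11.49 and 11.49 with G183S and had the smallest p of the 11 measured receptors with wild type (-0.48 ± 0.16 SE, adjusted p = 0.160). Tnfrsf17, the receptor BCMA, had it with G183S (-2.08 ± 0.51 SE, adjusted p = 0.119) and between G183S and wild type (-1.30 ± 0.51 SE, adjusted p = 0.508), with 10.25, 7.72, 8.96 and 9.04 in the G183S arrays. None of these passed. Both Tnfrsf17 differences passed without G183S replicate 1, its highest G183S array (-2.50, adjusted p = 0.0246, and -1.72, adjusted p = 0.0413). In those fits 1.48% and 5.58% of genes passed. The Tnfrsf13b value was -0.26 without wild-type replicate 1. The 9 other regulators held both brakes and genes of the linear ubiquitin ligase, which promotes signalling. Of the 9, Rnf31, of that ligase, had the smallest p with wild type (-0.48 ± 0.14 SE, adjusted p = 0.130). It also had the smallest between G183S and wild type (0.38 ± 0.13 SE, adjusted p = 0.499). Sharpin, its partner, had the smallest with G183S (0.27 ± 0.10 SE, adjusted p = 0.301). Without wild-type replicate 1 the Rnf31 values were -0.31 and 0.21. Without wild-type replicate 3 the first passed (-0.64, adjusted p = 0.0434), when 1.35% of genes did.

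Other known targets were also measured. Of 24, the cell-cycle gene Ccnd2 was closest with wild type (0.46 ± 0.11 SE, adjusted p = 0.0736), the cytokine subunit gene Ebi3 with G183S (0.91 ± 0.19 SE, adjusted p = 0.0843) and the growth factor gene Csf2 between G183S and wild type (0.74 ± 0.24 SE, adjusted p = 0.484). Ebi3 read 6.76, 6.56 and 6.58 log2 units with empty vector, 6.60, 7.11 and 7.11 with wild type and 7.28, 8.07, 7.35 and 7.45 with G183S, with no G183S array as low as a control. Csf2 read 5.64, 5.21 and 5.44 log2 units with empty vector, 5.39, 5.45 and 5.67 with wild type and 5.59, 6.34, 6.81 and 6.24 with G183S, and here too G183S replicates 2, 3 and 4 stood above the rest while replicate 1 did not. With G183S replicate 1 left out, Ebi3 passed against empty vector (0.99, adjusted p = 0.0431), when 1.48% of genes did. Csf2 then passed against wild type (0.96, adjusted p = 0.0181), when 5.58% of genes did. Both had their lowest G183S value in that array, so leaving it out favoured these calls. Ccnd2 with wild type passed in the fit without that array (0.46, adjusted p = 0.0142) and with only the 2 groups fitted (0.46, adjusted p = 0.0375). The shares of genes called were 5.18% and 2.94%. Among 13 transducers Irak2, an interleukin-1 receptor-associated kinase gene, was closest with G183S (0.60 ± 0.24 SE, adjusted p = 0.367).

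Some markers of other cell states also set G183S replicate 1 apart from the other G183S arrays. Of 9 myeloid markers, 7 had means under 6.89 log2 units and 0 passed limma in any comparison; the list mean was 6.52 to 6.64 log2 units with empty vector, 6.15 to 6.47 with wild type and 6.32 to 6.94 with G183S. Lyz2 and Csf1r, which define macrophages, stayed within 4.90 to 5.40 and 5.69 to 5.92 log2 units. The macrophage marker Adgre1 nevertheless read 7.17, 6.88 and 6.27 log2 units with empty vector, 5.59, 5.85 and 6.03 with wild type and 5.76, 7.16, 7.46 and 7.56 with G183S, and Mpo, a granule enzyme gene, read 7.67, 7.41 and 7.12 log2 units with empty vector, 6.31, 6.19 and 6.85 with wild type and 6.28, 7.31, 7.99 and 7.74 with G183S, both low in all wild-type arrays and G183S replicate 1. Cd68, the brightest of the myeloid list, did not follow them. It read 9.97, 10.06 and 9.71 log2 units with empty vector, 8.66, 9.78 and 9.70 with wild type and 9.88, 9.65, 10.39 and 9.74 with G183S. The plasma-cell list mean was 11.49 to 11.96 log2 units with wild type and 10.99 to 11.93 with G183S. Of its 8 genes 0 passed in any comparison (1.88%, 0.311% and 0% of all genes). With G183S against empty vector 7 of the 8 lay below 0 and 3 of them had an unadjusted p under 0.05, all lower: Sdc1 (-1.14), Tnfrsf17 (-2.08) and Xbp1 (-0.33). Over all genes 48.8% lay above 0 there, and 6.18% were lower at that unadjusted p. Replicate 1 was the highest G183S array for every measured plasma-cell marker, as it was for 28.9% of all genes. In the G183S arrays Sdc1 read 11.03, 9.73, 9.84 and 10.45 log2 units and Xbp1 13.03, 12.42, 12.69 and 12.59. Xbp1 in replicate 1 lay inside the control range. With wild type 5 of the 8 lay below 0, among them Sdc1 (-0.64), Tnfrsf17 (-0.78) and Xbp1 (-0.23), and 1 had p under 0.05, Slamf7, which was higher (0.40). Over all genes 53.9% lay above 0 with wild type, and 15.9% had an unadjusted p under 0.05 (7.38% higher). Irf4, a plasma-cell factor that is also a known NF-kB target, read 11.80, 11.77 and 12.02 log2 units with empty vector, 12.59, 12.54 and 12.20 with wild type and 12.59, 11.88, 11.34 and 11.62 with G183S, with G183S replicate 1 again on the side of wild-type replicates 1 and 2. Adgre1, Mpo and Irf4 were singled out after their values were seen. The part of these cell states in the NF-kB results was not tested.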

How the data were processed

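Total RNA (100 ng per sample) from 10 J558 cultures was extracted with Trizol, amplified with the Ambion WT Expression Kit and hybridised to Affymetrix whole-transcript arrays, per the labels' protocols. The authors deposited 1 log2 value per probe set and array. Their tools were RMA and Partek, per the submitters' processing notes, which give no version; whether all arrays were normalized together is not given in the sources used here. Because RMA equalises the distributions of arrays, a change common to most genes cannot be seen.

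Of 34760 probe sets, 21640 had 1 gene symbol in the platform annotation (1321 had several, 11799 no entry), giving 19937 genes by the highest-mean probe set. All 31 measured members matched RefSeq by gene identifier with 0 symbols changed; Birc2 and Cflar have more than 1 probe set. Sequences come from RefSeq for GRCm38.p6; members without a window there were Ccl4, Ikbkb, Malt1, Nfkbiz and Relb.

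limma 3.58.1 in R 4.3.3 fitted 1 coefficient per group to all 10 arrays (7 residual and 2.88 prior degrees of freedom), with Benjamini-Hochberg adjustment over 19937 genes and 95% intervals from the moderated SE. The fit was tested on simulated data. No filter was applied. Members given with tests are those called and the 8 with the smallest p per comparison; Nfkbia, Tnfaip3 and the subunits have their value on every array; Ccl3 was added after its values were seen. From the other pathway lists, the called genes and the smallest p per list are named. Members and lists were chosen with earlier results of these data known, so no list was tested. Alternatives were other probe set summaries, adjustment families, normalizations, weights, moderation, filters, a block and leaving out each array. Figures used Python 3.11.15, matplotlib 3.10.9, pandas 2.3.3 and numpy 2.4.6.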

Additional observations from a re-analysis of the deposited data

Results flagged for a closer look

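In 3 of 19 members examined, 1 of the 4 G183S arrays lay far from the other 3, by the ratio of its gap to the group's whole range (Dixon's test at 95%). The ratio was 0.878 for Nfkb2, 0.873 for Nfkbiz and 0.841 for Relb, and in each the array was G183S replicate 1, which was low (9.20, 8.46 and 8.05 log2 units). Chance sets apart about 1 in 20 groups, and over all genes 7.46% of G183S groups exceeded the critical value, against 4 of 31 members (12.9%). Groups of 3 arrays were not examined in this way.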

How the results depend on the processing

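In wild type against empty vector the count of members called, 1 in the reported fit, was 0 with adjustment over all probe sets, with arrays centred on their medians, with quantile normalization, with the replicate block and with only the 2 groups fitted, and 3 with array weights (Rel, Rela and Nfkbie). It ranged from 0 to 1 when single arrays were left out; without wild-type replicate 2 the gene called was Nfkbib. For G183S against empty vector the count, 0 as reported, was 5 with array weights (Rel, Nfkbie, Nfkbid, Traf1 and Ccl3) and 0 to 1 with single arrays left out (Traf1 without G183S replicate 1). For G183S against wild type it was 8 with array weights and 0 to 4 with single arrays left out (4 without G183S replicate 1). The member median was -0.12 to 0.12, 0.11 to 0.27 and 0.07 to 0.27 log2 units in the 3 comparisons with single arrays left out. In wild type against empty vector it was below 0 without wild-type replicate 3 (-0.12) and with dim genes left out (-0.04). It was also just below 0 with the mean of all probe sets of a gene (-2.17e-05). All but the first of these lay within the replicate spread. Among the 24 differences of the 8 members with the smallest p per comparison, 0 reversed under any alternative run. Some differences outside these 24 did reverse. With wild type, that of Tnfaip3 rose above 0 without wild-type replicate 1, and that of Ccl3 fell below 0 without wild-type replicate 3. With G183S, that of Nfkbia rose above 0 without G183S replicate 1. Over all genes the counts were 374, 62 and 0 as reported, and array weights gave 2576, 1449 and 2752, and leaving out single arrays 6 to 1033, 8 to 295 and 0 to 1113; the cause was not tested.

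Replicate numbers recur across groups, but deviations of same-numbered arrays correlated between -0.162 and 0.507 across genes, over 0.1 in 3 of 9 pairs. Arrays correlated best with their own number in 6 of 18 checks, so the number was not taken as pairing. The largest values lay between wild type and G183S, 0.507 for replicate 1 and 0.455 for replicate 3, with -0.162 for replicate 2. Whether same-numbered arrays of these groups were handled together was not tested. With the replicate block 228, 10 and 2 genes were called and 0 members, and Rel with wild type had an adjusted p of 0.0557. The number of arrays limits precision, and signal over background was not used here.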

Other observations

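Of the pathway genes outside the members, 3 were chosen here after their values were seen, because G183S replicate 1 is low in them, as in Nfkbia and Relb. Icam1, the adhesion molecule that binds the leukocyte integrin, read 10.93, 11.05 and 10.65 log2 units with empty vector, 9.13, 10.09 and 11.04 with wild type and 10.17, 11.61, 11.72 and 11.71 with G183S. Its G183S minus wild-type difference was 1.22 ± 0.46 SE, adjusted p = 0.508 (0.74 without wild-type replicate 1). Ier3, an early-response survival gene, read 8.0, 8.09 and 7.70 log2 units with empty vector, 7.30, 7.14 and 7.94 with wild type and 7.47, 8.34, 8.58 and 8.48 with G183S (0.75 ± 0.27 SE, adjusted p = 0.499 in the same comparison). The adaptor gene Myd88, which serves Toll-like receptors, read 10.78, 10.85 and 10.70 log2 units with empty vector, 9.97, 10.12 and 10.60 with wild type and 10.34, 11.0, 10.97 and 11.09 with G183S (0.62 ± 0.19 SE, adjusted p = 0.484). In each, wild-type replicates 1 and 2 and G183S replicate 1 lay below every control, and G183S replicates 2, 3 and 4 lay above every control. All 3 passed in that comparison without G183S replicate 1 (Icam1 1.59, adjusted p = 0.0407; Ier3 1.0, adjusted p = 0.0241; Myd88 0.79, adjusted p = 0.0205), when 5.58% of genes did. Their choice rested on low values in that array, so leaving it out favoured these calls, which are no separate support. Against empty vector, the Icam1 difference was 0.43 with that array and 0.80 without it.

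Irf1, an interferon regulatory factor gene and NF-kB target, went another way and was also chosen after its values were seen. It read 9.94, 10.03 and 9.92 log2 units with empty vector, 8.19, 8.81 and 9.50 with wild type and 8.77, 9.54, 9.71 and 9.76 with G183S, with every wild-type and G183S array below the controls. The differences were -1.13 ± 0.32 SE, adjusted p = 0.116 with wild type and -0.52 ± 0.30 SE, adjusted p = 0.601 with G183S, and neither passed. The first passed without wild-type replicate 3 (-1.46, adjusted p = 0.0486) and without G183S replicate 1 (-1.13, adjusted p = 0.0364). In those fits 1.35% and 5.18% of genes passed. The mean over the probe sets of Irf1 gave -0.59, and the second was -0.30 without G183S replicate 1.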
